A study of Mus musculus with 4 samples.

Results

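The genes described here encode 9 chains of sarcomeric and related myosins in the heart of the mouse embryo: the heavy chains Myh6, Myh7 and Myh7b, the regulatory light chains Myl2, Myl7 and Myl9, and the essential light chains Myl1, Myl3 and Myl4. They were taken by symbol from the 32285 genes of the deposited count matrices, and each of the 9 had a single entry. Their unique molecular identifiers (UMIs, each standing for a captured mRNA molecule) were summed in each library over 10050 muscle cells of 29168 cells used, and over 5 groups of those cells that stand for regions of the heart.

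Myosin of heart muscle is a hexamer. A pair of heavy chains carries the motor that pulls on actin, and each heavy chain binds a regulatory light chain, which is phosphorylated to tune contraction, and an essential light chain, which steadies the lever arm. Early heart tubes transcribe most of these genes together, and the chambers later keep different sets: in rodents Myh6 (alpha heavy chain) and Myl7 become atrial in the embryo, Myh7 (beta heavy chain) and Myl2 ventricular, Myl4 is the embryonic and atrial essential chain, and Myl3 the ventricular and slow one.

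Hearts of C57BL/6J embryos at E10.5 (days after conception) were dissociated and loaded as 2 wild-type (Wt1, Wt2) and 2 Cyp51 I383V/I383V (Ho1, Ho2) single-cell libraries. Cyp51 encodes the lanosterol demethylase of cholesterol synthesis, and Ho embryos carry the I383V substitution on both alleles, from a knock-in made with CRISPR/Cas9, an agent that the labels list for the Wt samples too. The study asked how this allele changes the embryonic heart. The sources used here do not say how many hearts or litters entered a library, so p-values measure the spread between these libraries, and the whole heart was dissociated, so every region below is read from counts. The files held 109893733 UMIs for Wt1, 117034633 for Wt2, 127018819 for Ho1 and 107377100 for Ho2. After the filters on cells, 8908, 7154, 6980 and 6126 cells were used, with medians of 10552, 14231, 15663 and 15843 UMIs, so that Wt1 was the shallowest library. Libraries shared between 14 and 34 barcodes a pair.

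Ho1 stood apart from the other 3 libraries in several ways. It held 28888 Xist UMIs against 5, 4 and 2 in Wt1, Wt2 and Ho2, and 0 UMIs of Y-linked genes against 8797, 9908 and 9657. None of its cells passed the limits for epithelial cells (at least 2 UMIs of Epcam), while the other libraries had 444, 182 and 260 such cells. Sex and the dissected tissue of Ho1 therefore cannot be told apart from its other differences, and results that Ho1 decides are given with and without it.

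Muscle cells were those with at least 10 UMIs of Tnnt2, cardiac troponin T, per 10000 UMIs, called Tnnt2 cells below. They numbered 1675, 2591, 3400 and 2384 in Wt1, Wt2, Ho1 and Ho2. Cells with at least 2 UMIs of Shox2, a factor of the venous pole, of Sema3c, a guidance cue of the outflow tract, or of Stard10, a lipid transfer protein, formed the Shox2, Sema3c and Stard10 cells. Cells without a UMI of these 3 genes were split at 10 UMIs of Nppa (atrial natriuretic peptide) per 10000 into Nppa-high and Nppa-low cells. In all, 1035 cells were Nppa-high, 2940 Nppa-low, 2095 Stard10, 1378 Shox2 and 502 Sema3c cells, and 2100 Tnnt2 cells fell in no group. The Nppa-high cells of Wt1 were few and shallow: 103 cells with a median of 3050 UMIs, against 362, 408 and 162 cells with medians of 17024, 17740 and 18023 UMIs in Wt2, Ho1 and Ho2.

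Other genes than those of the rule were used to see what the groups hold. In Nppa-high cells all 7 trabecular markers (among them Cited1, Slit2 and Gja5) were highest of the 5 groups in each library. In Shox2 cells all 7 markers of the sinus venosus exceeded the Stard10 cells in each of the 4 libraries, and all 8 ventricular markers were lower. Of 8 atrial markers, Nr2f1, Nr2f2, Sln and Tbx5 were also higher in Shox2 than in Stard10 cells in each library, Kcnj5 and Bmp10 were lower, and 6 of the 8 had their highest mean in Shox2 cells. In Stard10 cells 6 of 8 atrial markers (Nr2f1, Nr2f2, Kcnj5, Tbx5, Angpt1 and Cav1) exceeded the Nppa-high cells in each library, Bmp10, which trabecular cells also use, was lower, and all 8 ventricular markers were lower. Sema3c cells exceeded Nppa-high cells in 7 of 8 outflow tract markers in each library. Nppa-low cells did so in the same 7, and also in 3 of 5 markers of compact muscle (Mycn, Tbx20 and Ptn). In 5 of 6 markers of the atrioventricular canal, Nppa-low and Sema3c cells both exceeded Nppa-high cells in each library (Tbx2, Bmp2, Tbx3, Rspo3 and Msx2), and Stard10 cells also did so in 5 of 6, with Cacna2d2 in place of Msx2. Of the 8 outflow tract markers, 6 were highest of the 5 groups in Sema3c cells in each library. The groups are named by their gene throughout, because the Stard10, Sema3c and Nppa-low cells turned out to be mixed, as the cell-by-cell Myl2 levels show further on.

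Of the markers of other tissues, those of endothelium were low in the muscle groups. The summed level of 5 endothelial markers lay between 0.224 and 0.536 UMIs per 10000 in the 5 groups and between 12.2 and 14.7 in Cdh5 cells. Shox2 cells had more of the 6 mesenchymal markers, led by Col3a1, than Stard10 cells, with 1.28, 1.25, 1.68 and 1.60 against 0.269, 0.193, 0.287 and 0.218 per 10000 in Wt1, Wt2, Ho1 and Ho2. Nppa-low cells had 0.967, 0.933, 0.672 and 0.555 and Sema3c cells 1.17, 1.37, 0.919 and 0.815 of them, against 0.249, 0.228, 0.487 and 0.161 in Nppa-high cells. The 5 epicardial markers, led by Tcf21, summed to between 0.801 and 1.09 in Shox2 cells and to at most 0.198 in Stard10 cells. The 6 erythroid genes, led by Hba-x, reached 7.23 per 10000 in the Shox2 cells and 2.60 in the Nppa-high cells of Ho1, where no other library exceeded 0.318. Smooth muscle genes were abundant in all groups, as embryonic heart muscle also uses Acta2, smooth muscle actin. The 6 of the list, led by Acta2, summed to between 64.0 and 160 per 10000 in the 5 groups, highest in the Sema3c cells of Wt2, and to between 3.57 and 4.26 in Cdh5 cells. The part of these genes in the myosin values was not tested.

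Myh6 and Myh7 are neighbours on chromosome 14 of GRCm38, both on the minus strand: Myh6 spans chr14:54941921-54966927 and Myh7 chr14:54970684-54994626, with 3756 bases between them. Their transcripts are alike. Of the 50-base words in the last 400 bases of the annotated transcript, where a 3′ assay reads, Myh6 shared 35.3% with Myh7 and Myh7 37.0% with Myh6, and a read within such a word cannot be assigned to either, so both levels may be understated. Myl7 lies at chr11:5896637-5898782 on the minus strand, Myl2 at chr5:122100951-122113472 on the plus strand, Myl3 at chr9:110741861-110769798 on the plus strand and Myl4 at chr11:104550663-104595753 on the plus strand. Myl1 is at chr1:66924295-66945404 on the minus strand, and Myh7b at chr2:155611212-155634307 and Myl9 at chr2:156775420-156781658 are both on the plus strand of chromosome 2.

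The promoters of 3 of these genes are shown because they belong to the pair of heavy chains that divides the regions and to the light chain with the highest level. Each is the 250 bases before the RefSeq start in GRCm38.p6, 5′ to 3′ on the gene's own strand, from chr11:5898783-5899032, chr14:54966608-54966857 and chr14:54994627-54994876. Capitals mark matches, on either strand, to CATTCC (the M-CAT motif of Tead factors), the CArG box of serum response factor, and TGATAA or AGATAA (read by Gata factors).
Myl7: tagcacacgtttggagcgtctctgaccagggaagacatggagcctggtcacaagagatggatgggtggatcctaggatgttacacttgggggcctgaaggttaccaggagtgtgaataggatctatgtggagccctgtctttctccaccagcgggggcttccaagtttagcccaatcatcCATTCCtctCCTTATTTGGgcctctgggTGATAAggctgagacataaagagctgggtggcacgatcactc
Myh6: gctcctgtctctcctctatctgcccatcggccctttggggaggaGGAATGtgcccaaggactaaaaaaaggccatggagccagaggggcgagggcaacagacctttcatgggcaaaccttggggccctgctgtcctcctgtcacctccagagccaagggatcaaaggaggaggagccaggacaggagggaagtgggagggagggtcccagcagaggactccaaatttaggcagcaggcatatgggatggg
Myh7: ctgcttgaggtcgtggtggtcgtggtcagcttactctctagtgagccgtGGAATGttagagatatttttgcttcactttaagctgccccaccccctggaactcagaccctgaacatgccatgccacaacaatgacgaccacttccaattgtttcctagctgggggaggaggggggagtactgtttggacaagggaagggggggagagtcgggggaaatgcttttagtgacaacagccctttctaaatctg

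In the Myl7 window the M-CAT match lay 70 to 65 bases, the CArG box 61 to 52 bases and TGATAA 42 to 37 bases before the start, with no overlap between them. Myh6 and Myh7 each had an M-CAT match on the other strand, 206 to 201 and 201 to 196 bases before the start. The Myh6 start of RefSeq lies 320 bases from the gene start of the annotation used for the spans above. Among 32851 promoter windows of the same length, 12.6% held CATTCC, 1.47% a CArG box, 7.94% TGATAA and 9.99% AGATAA. A match is a run of letters, not a measured site.

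The 9 chains made up 4.63%, 4.56%, 4.62% and 4.50% of all UMIs of Tnnt2 cells in Wt1, Wt2, Ho1 and Ho2, and Myl7 made up most of that. Levels are given as UMIs per 10000 UMIs of the summed cells. They are not divided by transcript length, since the assay counts each molecule at its 3′ end. Myl7 stood at 259, 234, 238 and 240 per 10000. The essential chain Myl4 followed with 70.6, 69.0, 73.0 and 67.7, and Myl3 with 43.2, 48.1, 49.1 and 43.8. The ranges of these 3 light chains over the libraries did not overlap, in that order.

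Myl2 (24.4, 30.8, 34.0 and 27.3 per 10000), Myl9, a regulatory chain best known from smooth muscle and non-muscle cells (22.7, 24.9, 21.3 and 20.6), and Myh6 (21.5, 21.4, 20.8 and 23.9) followed, each overlapping its neighbour in that order, while Myl2 lay above Myh6 in each library. Myh7 stood at 16.2, 20.4, 18.3 and 20.3 per 10000, below Myh6 in each library. Myl1, known from fast skeletal muscle and the early heart, was lower at 5.64, 7.26, 7.16 and 5.55. Myh7b, a slow heavy chain whose gene hosts a microRNA, was rare, at 0.103, 0.118, 0.126 and 0.126 per 10000. The 8 skeletal muscle markers give Myl1 a context: their summed level was between 0.458 and 2.25 per 10000 in the 5 groups, led by Tnni2, and between 2 and 6 of them had no UMI in a group.

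**Figure D1:**
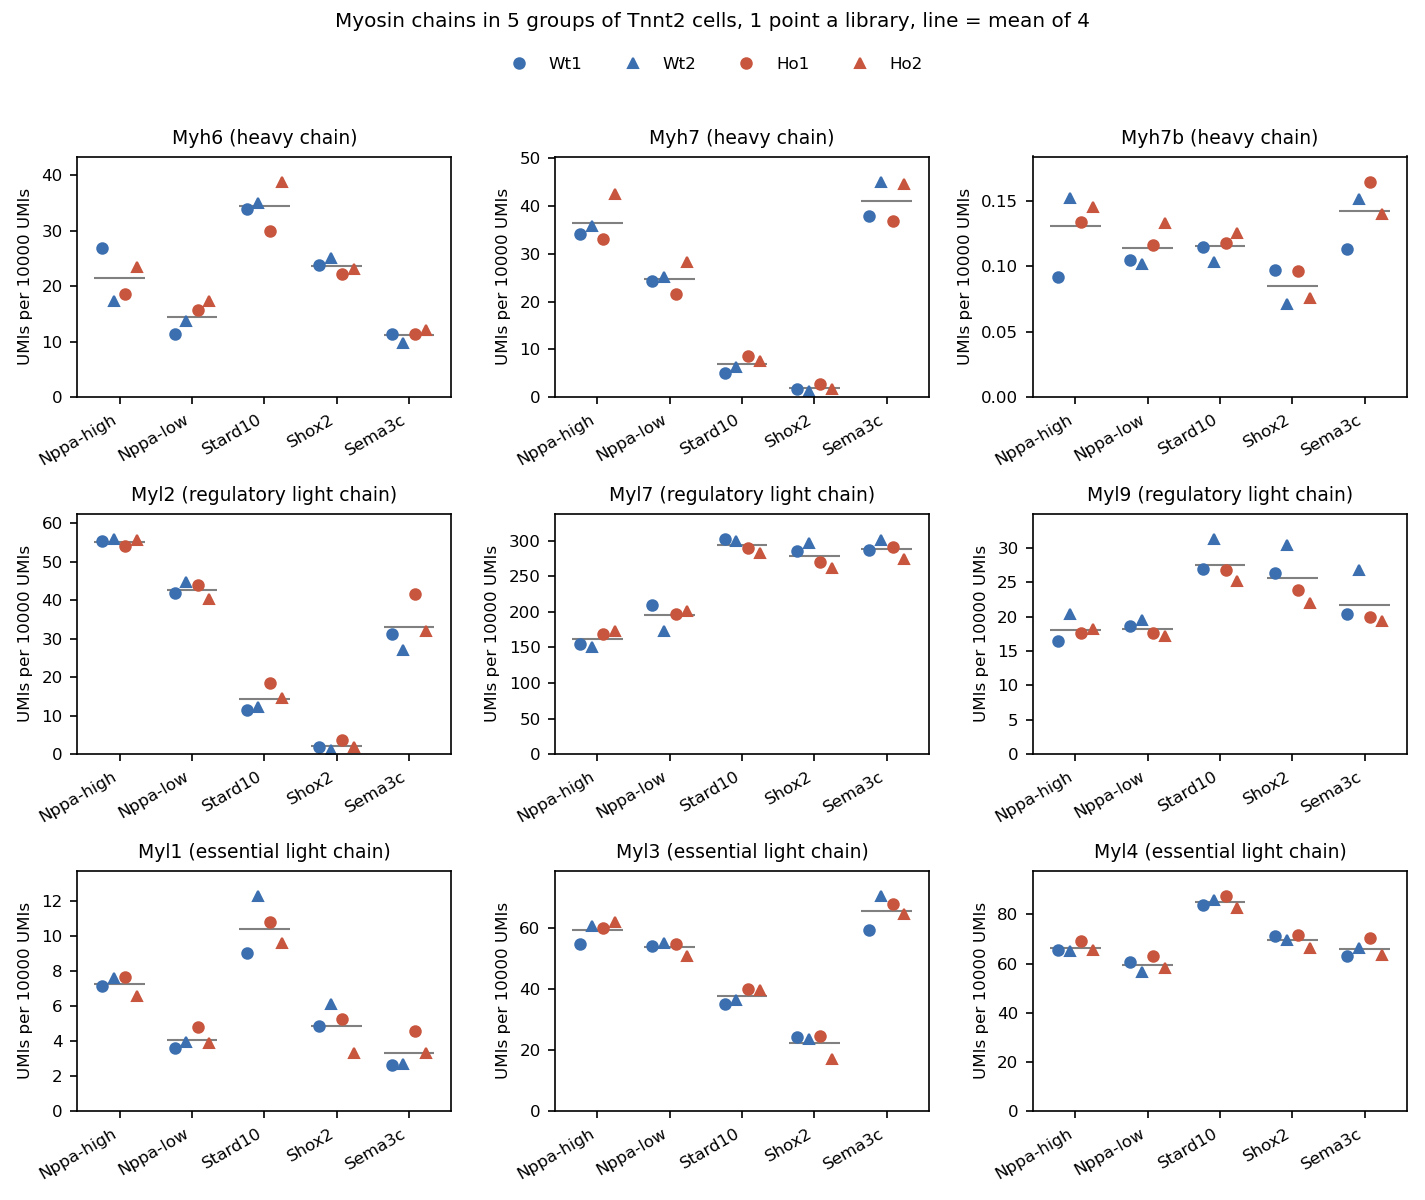
Level of each myosin chain (y axis, UMIs per 10000 UMIs, each panel with its own scale from 0) in 5 groups of Tnnt2 cells (x axis). Points are the 4 libraries and lines their means: Myh7 and Myl2 are high in Nppa-high cells and lowest in Shox2 cells, while Myh6, Myl1 and Myl4 are highest in Stard10 cells.

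The heavy chains Myh6 and Myh7 ordered the regions differently. Stard10 cells had the highest Myh6, with 33.8, 34.9, 29.97 and 38.7 per 10000 in Wt1, Wt2, Ho1 and Ho2, and their range lay above those of all other groups. Shox2 cells followed with 23.8, 25.0, 22.3 and 23.1, Nppa-high cells with 26.8, 17.3, 18.6 and 23.4, and Nppa-low and Sema3c cells had means of 14.5 ± 2.51 and 11.2 ± 0.975 (SD, n = 4 libraries). Each of these 4 groups overlapped its neighbour in that order, so only the top place was set apart.

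Myh7 ran nearly the other way. It was 37.9, 44.9, 36.8 and 44.6 per 10000 in Sema3c cells and 34.0, 35.9, 33.2 and 42.4 in Nppa-high cells, which overlapped. Nppa-low cells had 24.3, 25.1, 21.5 and 28.3, Stard10 cells 5.05, 6.36, 8.65 and 7.51, and Shox2 cells 1.70, 1.34, 2.74 and 1.64. From Nppa-high cells downwards no range overlapped the next, and the highest mean was 22.1 times the lowest, against 3.06 times for Myh6. Myh7b varied by 1.67 times, with the lowest mean in Shox2 cells, whose range overlapped that of Nppa-high cells because of Wt1. In Wt1 it rested on 7 UMIs in the Nppa-high and 14 in the Sema3c cells.

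Taken as a share of Myh6 and Myh7 UMIs, Myh6 was 87.0%, 84.6%, 77.6% and 83.7% in Stard10 cells and 44.1%, 32.5%, 35.9% and 35.6% in Nppa-high cells. The difference was 46.2 ± 4.81 percentage points (SD, n = 4 libraries) and was positive in 4 of 4 libraries, with an exact two-sided sign-flip p of 0.125, the smallest that 4 libraries allow. Shox2 cells were higher still, by 9.43 ± 2.21 points over Stard10 cells (exact sign-flip p = 0.125), and Sema3c cells were lower than Nppa-high cells, by a difference of -15.5 ± 3.75 points (exact sign-flip p = 0.125). Nppa-low and Nppa-high cells differed by -0.196 ± 8.11 points, less than the spread between libraries (exact sign-flip p = 1).

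The same division held cell by cell. Among cells with at least 5 UMIs of Myh6 and Myh7 together, more Myh6 than Myh7 was found in 88.1%, 85.3%, 78.1% and 83.0% of Stard10 cells and in 97.3%, 99.6%, 96.5% and 98.0% of Shox2 cells. In Nppa-high cells the share was 36.4%, 17.9%, 25.6% and 25.9%, and in Sema3c cells 9.72%, 6.25%, 15.1% and 10.4%. These 4 groups did not overlap over the libraries, while Nppa-low cells, at 22.3%, 25.3%, 37.7% and 30.4%, overlapped the Nppa-high cells.

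**Figure D2:**
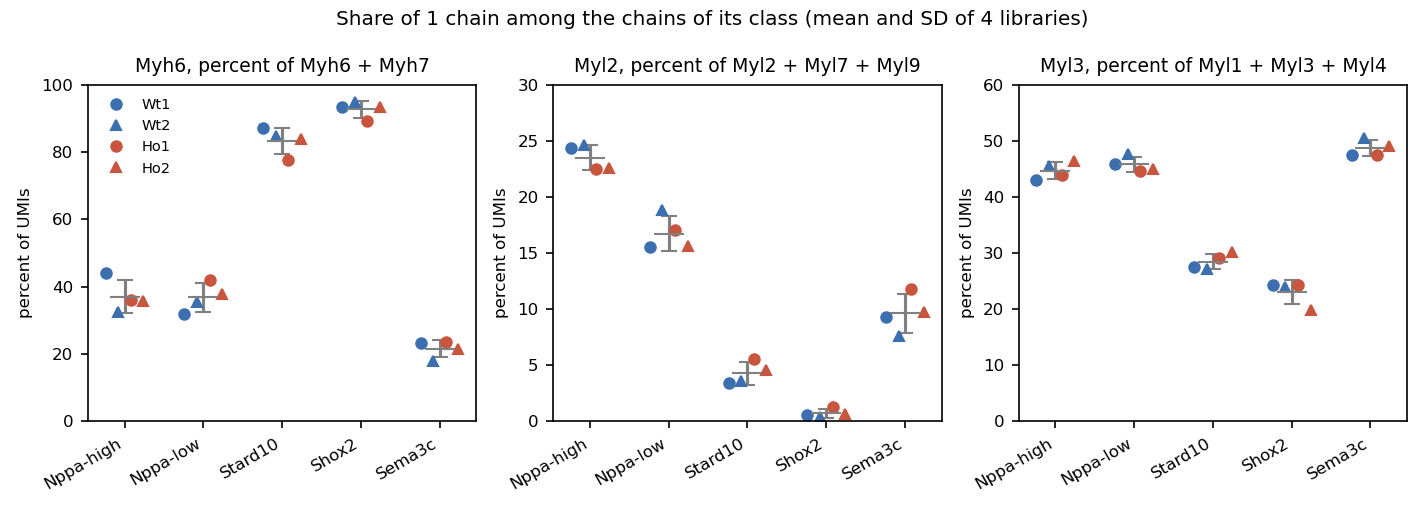
Share of 1 chain among the chains of its class (y axis, percent of their UMIs) in 5 groups of Tnnt2 cells, for Myh6 among Myh6 and Myh7, Myl2 among the regulatory chains and Myl3 among the essential chains. Points are libraries, and bars the mean and SD of 4: Myh6 averages 83.2% in Stard10 and 37.0% in Nppa-high cells, and Myl2 falls from 23.5% in Nppa-high to 0.702% in Shox2 cells.

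Among the regulatory light chains, Myl2 had the widest range over the regions. Nppa-high cells had 55.3, 55.8, 54.1 and 55.6 per 10000, with hardly any spread. Nppa-low cells had 41.9, 44.6, 44.0 and 40.3, and Sema3c cells 31.3, 27.2, 41.5 and 31.9, overlapping because of Ho1. Stard10 cells had 11.6, 12.2, 18.6 and 14.6 and Shox2 cells 1.85, 1.18, 3.68 and 1.78. The highest mean was 26.0 times the lowest, and Nppa-high, Stard10 and Shox2 cells each stood apart from every other group. No background was subtracted. In Shox2 cells Myl2 was only 8.47, 4.37, 4.70 and 8.67 times its level in Cdh5 cells of Wt1, Wt2, Ho1 and Ho2, which should not make it.

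Myl7 was present at a high level everywhere. It was lowest in Nppa-high cells, at 155, 151, 169 and 173 per 10000, and next in Nppa-low cells, at 209, 173, 197 and 201. Stard10 cells (302, 300, 289 and 282), Sema3c cells (286, 301, 291 and 275) and Shox2 cells (285, 296, 270 and 262) overlapped. Even in Nppa-high cells Myl7 was 68.8% of regulatory chain UMIs on average, against 23.5 ± 1.13% for Myl2 (SD, n = 4 libraries). Myl9 changed by 1.52 times over the groups, and each group overlapped its neighbour.

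The essential chain Myl3 followed the order of Myh7. Its means were 65.6 ± 4.79 per 10000 in Sema3c, 59.5 ± 3.24 in Nppa-high and 53.7 ± 1.96 in Nppa-low cells, which overlapped as neighbours, then 37.9 ± 2.43 in Stard10 and 22.5 ± 3.52 in Shox2 cells, each set apart (SD, n = 4 libraries). Myl4 and Myl1 were instead highest in Stard10 cells. Myl4 reached 84.0, 85.8, 87.4 and 82.6 per 10000 there and changed by only 1.42 times over the 5 groups, while Myl1 reached 9.003, 12.3, 10.8 and 9.62 and fell to 2.61, 2.70, 4.60 and 3.35 in Sema3c cells.

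The regions were compared in edgeR's quasi-likelihood test over 11882 genes, with the library as a block. All 9 chains passed its filter on low counts, here and in the comparisons of the genotypes. Between Stard10 and Nppa-high cells 8 of 9 chains passed the adjusted p of 0.05, 5 higher and 3 lower in Stard10 cells, where 30.4% of all genes passed, 14.6% higher and 15.8% lower. In Stard10 cells Myh7 fell by 2.44 ± 0.13 on the log2 scale (SE, adjusted p = 7.38e-15), Myl2 by 2.02 ± 0.13 (adjusted p = 9.36e-13) and Myl3 by 0.68 ± 0.07 (adjusted p = 1.34e-08). Myl7 rose by 0.82 ± 0.06 (adjusted p = 3.15e-12), Myh6 by 0.66 ± 0.09 (adjusted p = 6.16e-07), and Myl9, Myl1 and Myl4 by 0.56, 0.50 and 0.32. Myh7b, at -0.32 ± 0.13, missed the threshold (adjusted p = 0.0640). Myl1 narrowly missed it too where the groups were set on cells thinned to 5000 UMIs (adjusted p = 0.0505). With any 1 library left out, 8 or 9 chains passed, beside 2686 to 3303 of all genes. A log2 change of at least 1 was asked as well in a second count: Myh7 and Myl2 met it, as did 6.23% of all genes.

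All 9 chains were lower in Shox2 than in Stard10 cells, in a comparison where 43.7% of genes passed, 21.0% higher and 22.7% lower. Myl2 fell by 2.92 ± 0.15 on the log2 scale (SE, edgeR adjusted p = 1.06e-15) and Myh7 by 2.03 ± 0.14 (adjusted p = 7.35e-13), followed by Myl1 (-1.25), Myl3 (-0.90), Myh6 (-0.68), Myh7b (-0.60), Myl4 (-0.43), Myl9 (-0.25) and Myl7 (-0.21). The median of the 9 was -0.68, and that of all genes 0.01. Myl7 and Myl9 lost the call without the library block and with a Tnnt2 limit of 20 per 10000.

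Sema3c cells differed from Nppa-high cells in 5 chains, of which 2 were higher and 3 lower, where 34.3% of genes passed, 17.3% higher and 17.0% lower. Myl7 rose by 0.76 ± 0.06 and Myl9 by 0.17 ± 0.06 on the log2 scale, while Myl1 fell by 1.18 ± 0.12, Myh6 by 0.99 ± 0.09 and Myl2 by 0.85 ± 0.13 (SE, edgeR adjusted p at or below 0.0236). The rise of Myl9 turned to -0.09 (adjusted p = 0.0438) where the groups were set on cells thinned to 5000 UMIs, and it lost the call without Wt1 (adjusted p = 0.0676), without Wt2 (0.132) and without Ho1 (0.0879). Myh7 at 0.11 ± 0.12, Myl3 at 0.07 ± 0.07, Myl4 at -0.09 ± 0.04 and Myh7b at -0.02 ± 0.16 did not pass.

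Nppa-low cells had less of 7 chains than Nppa-high cells and more of Myl7, in a comparison where 26.5% of genes passed, 13.0% higher and 13.5% lower. Myl1 fell by 0.89 ± 0.11, Myh6 by 0.60 ± 0.09, Myh7 by 0.60 ± 0.12, Myl2 by 0.42 ± 0.13, Myh7b by 0.36 ± 0.13, Myl4 by 0.21 ± 0.04 and Myl3 by 0.20 ± 0.07 on the log2 scale (SE, edgeR adjusted p at or below 0.0477). Myl7 rose by 0.21 ± 0.06, and Myl9 was at -0.05 ± 0.06. With any 1 library left out, 5 or 6 of the 9 chains passed, beside 2245 to 2797 of all genes. Myl2 lost the call without Wt1 (adjusted p = 0.0529) and Ho2 (0.0838), Myl7 without Wt1 (0.109), Myl3 without Wt2 (0.156), Ho1 (0.106) and Ho2 (0.115), and Myh7b without Wt2 (0.488), Ho1 (0.0896) and Ho2 (0.0551). DESeq2 called 5.

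Other parts of the contractile machinery also differed between Stard10 and Nppa-high cells, where 14.6% of all genes passed as higher and 15.8% as lower. Of 10 thin filament genes 4 rose (Tpm2 by 0.42, Tnni3 by 0.30 and Tnnc1 by 0.28 on the log2 scale) and 3 fell, among them Tnni1, the slow troponin I, by 0.23. Of 9 thick filament partners 2 rose, Mybphl by 0.84 and Mylk, named after its value was seen, by 1.97, and 6 fell, among them Ttn (titin) by 0.57, Myom1 by 0.48 and Mybpc3 by 0.46. Of 7 genes for the folding and turnover of myosin Trim63, a ubiquitin ligase of the sarcomere, rose by 0.72 and 3 fell, with Smyd2 by 0.43. Of 6 non-muscle and smooth muscle chains 2 rose, Myl12b by 0.57 and Myl6 by 0.25, and 2 fell, Myh10 by 0.61 and Myh9 by 0.49. The medians of these 4 lists lay between -0.39 and 0.06, beside -0.002 over all genes and 0.32 over the 9 chains.

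Of 17 transcription factors of chamber genes, 8 were higher in Stard10 cells and 6 lower. Nr2f1 and Nr2f2, nuclear receptors known for holding atrial identity, rose by 3.98 ± 0.21 and 3.91 ± 0.20 on the log2 scale, Irx4, a ventricular repressor of atrial genes, fell by 2.18 ± 0.12, and Hand1, a factor of the outer curvature of the left ventricle, fell by 3.68 ± 0.24 (SE, each with an edgeR adjusted p at or below 5.04e-13).

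In Shox2 against Stard10 cells the skeletal actin Acta1 fell by 2.44 ± 0.10, the kinase of the regulatory chain Mylk3 by 1.15 ± 0.09 and titin by 0.81 ± 0.06, while the smooth muscle heavy chain Myh11 rose by 2.94 ± 0.27 (log2, SE, edgeR adjusted p at or below 3.12e-10). Of the lists, 6 of 10 thin filament genes, 6 of 9 thick filament partners, 6 of 7 folding genes and 7 of 17 factors fell there, beside 22.7% of all genes, and 4, 0, 1 and 4 of them rose, as did 4 of 6 non-muscle and smooth muscle chains, beside 21.0% of all genes. In Sema3c against Nppa-high cells Mybpc1, the slow skeletal binding protein C, rose by 6.19 ± 0.30, slow skeletal troponin T (Tnnt1) by 1.44 ± 0.12, Hand2 by 1.19 ± 0.10 and Myl6 by 0.57 ± 0.05, and of the 6 non-muscle and smooth muscle chains 4 rose and 0 fell, beside 17.3% and 17.0% of all genes.

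Myl2 was either high or near 0 in most single Stard10 cells, which no sum shows. A limit of 20 UMIs of Myl2 per 10000 was set after these values were seen, so what follows is a description without a test. It was reached by 50 of 316 Stard10 cells of Wt1, 97 of 559 of Wt2, 215 of 754 of Ho1 and 95 of 466 of Ho2, or 15.8%, 17.4%, 28.5% and 20.4%. Few cells lay near it: 5, 10, 16 and 4 cells between 10 and 20, and 2, 5, 18 and 4 between 20 and 30.

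The Stard10 cells above and below the limit differed in the other chains too. Above it, Myh7 was 28.1, 31.6, 29.0 and 33.6 per 10000 in Wt1, Wt2, Ho1 and Ho2, and below it 0.652, 1.18, 1.08 and 0.774. Myh6 was 15.0, 14.9, 16.1 and 18.1 above and 37.4, 39.0, 35.1 and 44.0 below. Myl3 was 67.3, 69.6, 67.8 and 69.8 above and 29.2, 29.7, 29.9 and 32.1 below. Above the limit, Myh6 and Myh7 lay between the lowest Nppa-low and the highest Nppa-high level, although the cells carried at least 2 UMIs of Stard10. Myl3 exceeded both of these groups (50.8 to 55.0 and 54.8 to 62.2) and lay within the range of Sema3c cells (59.4 to 70.5).

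Transcription factors split along the same line. Irx4 was 0.423, 0.442, 0.464 and 0.707 per 10000 above the limit and 0.0104, 0.00193, 0.0166 and 0.00593 below it. Nr2f1 was 0.0867, 0.113, 0.145 and 0.106 above and 1.00, 0.933, 0.688 and 1.10 below. Most Myh7 UMIs of the Stard10 group came from the cells above the limit: 2592 of 2907, 6719 of 7938, 12973 of 14275 and 7312 of 7964 in the same order of libraries. The Myh7 level below the limit still exceeded that of Cdh5 cells, which was 0.0821, 0.110, 0.341 and 0.0942 per 10000.

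**Figure D3:**
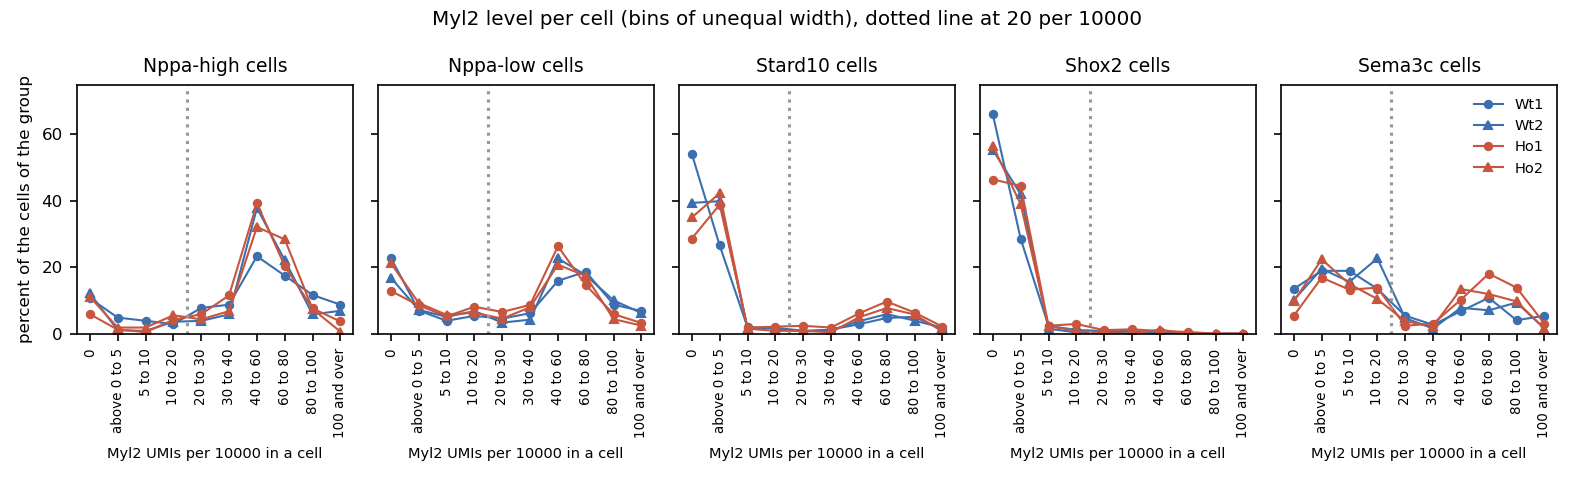
Share of the cells of each group (y axis, percent) by the Myl2 level of the cell (x axis, UMIs per 10000 in bins of unequal width), with 1 line a library and a dotted line at 20 per 10000. Stard10 cells fall into cells under 5 and cells mostly over 40 per 10000, Shox2 cells lie almost wholly under 5, and Sema3c cells spread over the whole range.

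Sema3c cells were mixed as well, with 35.1%, 32.0%, 50.6% and 42.5% at or above the limit in Wt1, Wt2, Ho1 and Ho2, but here Myh7 did not follow. It was 41.2, 41.9, 32.0 and 43.2 per 10000 above the limit and 35.6, 46.6, 43.0 and 45.7 below. Myl1 did, with 4.89, 5.31, 6.79 and 5.85 above and 0.937, 1.28, 1.80 and 1.29 below, and Myl7 ran opposite, with 211, 217, 192 and 202 above and 342, 348, 418 and 335 below. The Sema3c cells below the limit thus joined a high Myh7 to the highest Myl7 of any group here, with Irx4 at or under 0.0316 per 10000. More cells lay near the limit than in the Stard10 group (10, 29, 23 and 14 between 10 and 20), so this division is less sharp.

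Of Shox2 cells 1.93%, 0.763%, 3.73% and 1.45% reached the limit. Of Nppa-high cells 77.7%, 82.3%, 88.2% and 79.6% did, and those below it were shallow, with medians of 1590, 962, 1405 and 1603 UMIs. Nppa-low cells were mixed, with 60.9%, 64.1%, 65.3% and 57.5% at or above the limit. Their cells below it were shallower too, with medians of 3046, 3583, 7974 and 5954 UMIs against 5888, 12503, 18327 and 19127 above it. High Myl2 did not exclude Myl7: every cell of the 5 groups with at least 20 per 10000 of Myl2 also had at least 20 per 10000 of Myl7, save 1 Nppa-high and 1 Nppa-low cell of Ho2.

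The genes whose pattern over the 20 sums (5 groups in 4 libraries) was most like a chain's were listed by Pearson's r of log2 CPM (counts per 1e6 counts of the sum), among 7254 genes with a mean of at least 10 CPM. These sums share libraries and depth, so r is a description. Closest to Myh7 were Pln (phospholamban, which restrains the calcium pump), with an r of 0.99, Myl3 (0.98), Fam189a2, Slmap and Mpped2. Closest to Myl2 were Mpped2 (0.99), Slc25a13, Irx4 (0.98), Pln and Capn6. Closest to Myh6 were Casq1 (0.94), which stores calcium, Tigd2, Atp2a2, the calcium pump itself, Myzap and Tmem163, and closest to Myl7 were Irs1 (0.93), St3gal6, Mob1b, Arl4a and Dach1. Between chains r was 0.95 for Myh7 and Myl2 and -0.61 for Myh6 and Myh7.

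Between genotypes, none of the 9 chains passed the test in the sum of all Tnnt2 cells. The log2 changes, Ho minus Wt, ran from -0.19 ± 0.15 for Myl9 to 0.18 ± 0.11 for Myh7b (SE, 2 libraries each), with 0.15 ± 0.19 for Myl2, 0.07 ± 0.15 for Myh7, 0.05 ± 0.14 for Myh6 and -0.05 ± 0.25 for Myl7. Myl3, Myl4 and Myl1 were at 0.02 ± 0.18, 0.005 ± 0.19 and -0.02 ± 0.17. The edgeR test called 0 of 9 chains, 0 of 9 had an unadjusted p under 0.05 (6.54% of all genes did) and DESeq2 called 0 as well, beside 1 of 14651 genes (0.00683%), Cthrc1, called by edgeR. The levels of Ho1 and Ho2 both exceeded those of Wt1 and Wt2 for 1 chain, Myh7b, and both lay below them for 1, Myl9, where 18.0% and 16.7% of all genes did. Without Ho2, Myl2 was at 0.35, and without Ho1 it was at -0.07. Fits without 1 library leave 1 library of that genotype, so only the size of a chain's change is given for them.

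Levels differed little between the genotypes in Nppa-high cells, where the changes ran from -0.05 ± 0.17 for Myh6 to 0.17 ± 0.16 for Myl7. Between these lay Myh7 (0.12), Myl3 (0.09), Myl4 (0.05), Myl2 (-0.01), Myh7b (-0.02), Myl9 (-0.04) and Myl1 (-0.05), with SEs from 0.14 to 0.25. Here edgeR called 0 of 9 chains, 0 had an unadjusted p under 0.05 (5.24% of genes did) and DESeq2 called 0, and 0.0568% of genes were called. Myl7 was the only chain higher in each Ho than in each Wt library (169 and 173 against 155 and 151 per 10000), where 16.4% of genes had that order, and no chain had the opposite order (0 of 9), which 17.2% of genes had. In these cells the summed atrioventricular canal markers were 0.986 and 0.915 per 10000 in Ho against 0.550 and 0.367 in Wt. The outflow tract markers summed to 0.464 and 0.519 against 0.366 and 0.226. Rspo3, of both lists, rose by 2.21 ± 0.36 and Cacna2d2 by 1.01 ± 0.19 (log2, SE, edgeR adjusted p = 0.00456 and 0.0280). The part of these genes in the change of Myl7 was not tested.

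In Stard10 cells Myh7 was 8.65 and 7.51 per 10000 in Ho1 and Ho2 against 5.05 and 6.36 in Wt1 and Wt2, and Myl2 was 18.6 and 14.6 against 11.6 and 12.2. These changes of 0.51 ± 0.14 and 0.49 ± 0.15 on the log2 scale had unadjusted p-values of 0.00269 and 0.00606 and did not pass (edgeR adjusted p = 0.473 and 0.653). The others were Myh7b at 0.18, Myl3 at 0.17, Myl4 at 0.01, Myh6 at 0.002, Myl1 at -0.05, Myl7 at -0.06 and Myl9 at -0.15, with SEs from 0.15 to 0.20. The edgeR test and DESeq2 called 0 of 9 chains, and edgeR called 0.114% of genes, while 5.76% of genes had an unadjusted p under 0.05. Each Ho library exceeded each Wt library for 4 chains (Myh7, Myh7b, Myl2 and Myl3) and was lower for 2 (Myl7 and Myl9), where 14.3% and 19.0% of genes did. Myh7 was called with the replicate number as a block, as given below, although replicate numbers did not pair the libraries. With every gene that had a UMI in the fit, Myh7 and Myl2 were called (edgeR adjusted p = 0.00575 and 0.0176). The changes of Myh7 and Myl2 were 0.66 and 0.70 without Ho2, and 0.35 and 0.25 without Ho1.

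The share of Stard10 cells at or above the Myl2 limit was 28.5% and 20.4% in Ho1 and Ho2 against 15.8% and 17.4% in Wt1 and Wt2. As the limit is on Myl2, this share restates the Myl2 level of the same cells and is not a separate result. Within the cells above the limit Myh7 was 29.0 and 33.6 per 10000 in Ho and 28.1 and 31.6 in Wt, so the genotypes interleaved. Of the 17 factors 1 was called in the same sums, Irx4, which rose by 0.92 ± 0.15 (edgeR adjusted p = 0.0290; 0.138 and 0.14995 per 10000 in Ho against 0.0765 and 0.0770 in Wt), while Nr2f1 interleaved, at 0.541 and 0.899 in Ho against 0.854 and 0.793 in Wt. Irx2, of the list of 8 ventricular markers, rose by 1.34 ± 0.18 (edgeR adjusted p = 0.00929). Hey2 of that list was at 0.0709 and 0.0651 in Ho against 0.0348 and 0.0441 in Wt. Tnni1, its most abundant gene, ran the other way, at 15.8 and 16.4 in Ho against 16.7 and 18.6 in Wt. Stard10 itself was at 2.88 and 3.24 per 10000 in Ho against 3.57 and 3.52 in Wt. It sets this group by a limit of 2 UMIs, so its level here depends on that rule and on depth. Summed markers of the atrioventricular canal were higher (1.46 and 1.65 against 1.24 and 1.09), as were those of compact muscle (1.39 and 1.67 against 1.29 and 1.33). Those of the sinus venosus were lower (1.40 and 1.57 against 1.98 and 1.66). The part of all these genes in the change of Myh7 and Myl2 was not tested.

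**Figure D4:**
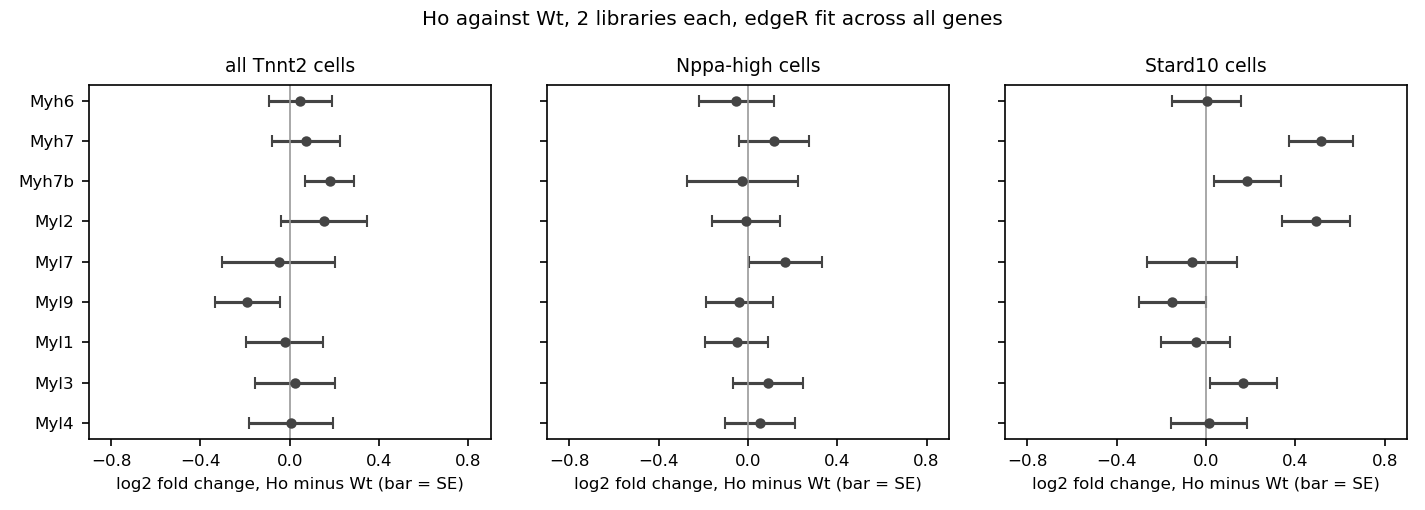
Log2 fold change of each chain, Ho minus Wt (x axis), in all Tnnt2 cells, Nppa-high cells and Stard10 cells. Points are edgeR estimates from 2 libraries against 2, without a replicate block, and bars their SE: Myh7 at 0.51 and Myl2 at 0.49 in Stard10 cells lie farthest from 0, and no chain passed the adjusted threshold in this fit.

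In the other groups edgeR and DESeq2 called 0 of 9 chains each. In Nppa-low cells 0.191% of genes were called, and Myh6 alone of the 9 had an unadjusted p under 0.05 (log2 change 0.37, edgeR), as did 9.74% of genes. The others were Myh7b (0.25), Myl1 (0.19), Myl7 (0.03), Myl4 (0.03), Myh7 (-0.02), Myl2 (-0.06), Myl3 (-0.07) and Myl9 (-0.15), with SEs from 0.12 to 0.16. Myh6 was at 0.40 without Ho1 and 0.33 without Ho2, and Myl1 at -0.02 without Ho1 and 0.37 without Ho2. Other values moved with genotype in Nppa-low cells. The summed atrioventricular canal markers were 3.79 and 3.53 per 10000 in Ho1 and Ho2 against 2.11 and 1.96 in Wt1 and Wt2. The summed atrial markers were 1.28 and 1.27 against 0.939 and 0.963. Of these Nr2f1 was higher in Ho (0.0720 and 0.105 against 0.0571 and 0.0470), while Angpt1, the most abundant, and Nr2f2 interleaved. The summed mesenchymal markers were lower in Ho as given above, with Cthrc1 at 0.0854 and 0.206 against 0.392 and 0.376. The median depth was 13750 and 14824 UMIs against 5393 and 8587. Their part in the change of Myh6 was not tested.

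In Shox2 cells 0.00881% of genes were called and 3 chains had an unadjusted p under 0.05 (6.08% of genes did), Myl2 at 0.85, Myh7 at 0.52 and Myl9 at -0.31. The others were Myh7b (0.02), Myl4 (-0.04), Myh6 (-0.11), Myl7 (-0.13), Myl3 (-0.21) and Myl1 (-0.35), with SEs from 0.11 to 0.26. Ho1 decided the values of Myl2 and Myh7. Without it Myl2 was at 0.20, Myh7 at 0.08, Myl1 at -0.75, Myl3 at -0.52 and Myl9 at -0.40. Without Ho2 Myl2 was at 1.32 and Myh7 at 0.88. The Myl2 level of Shox2 cells was 4.70 times that of Cdh5 cells in Ho1, and 8.47, 4.37 and 8.67 times in Wt1, Wt2 and Ho2. In the sums, Cdh5 cells of Ho1 had more Myl2 (0.782 per 10000) than those of Wt1, Wt2 and Ho2 (0.218, 0.270 and 0.205). Over single Cdh5 cells the median of Myl2 was 0 in each library. In Ho1 0.959% of them had 20 or more per 10000, against 0.0994%, 0% and 0% in Wt1, Wt2 and Ho2. The part of transcripts from outside the cell in the change of Myl2 was not tested. Other markers moved with genotype in Shox2 cells too. The 6 cardiomyocyte markers, led by Actc1, summed to 201 and 184 per 10000 in Ho1 and Ho2 against 224 and 234 in Wt1 and Wt2, and the mesenchymal markers to 1.68 and 1.60 against 1.28 and 1.25. The 5 markers of compact muscle were higher in Ho (3.56 and 3.24 against 2.44 and 3.08). The 8 ventricular markers summed to less in Ho (14.8 and 16.0 against 16.1 and 17.1). Nearly all of that sum was Tnni1, with a mean of 15.4 per 10000 over the libraries. Of the rarer genes of that list, Irx2 was higher in Ho (0.00815 and 0.0110 against 0.00525 and 0.00686), on at most 9 UMIs a library. Irx4 and Hey2 interleaved. The erythroid genes stood out in Ho1 as given above. The part of all these markers in the changes of the chains was not tested.

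In Sema3c cells 0.0595% of genes were called and Myl1 alone of the chains had an unadjusted p under 0.05, at 0.61, as did 6.64% of genes. The others were Myl2 (0.35), Myh7b (0.18), Myh6 (0.17), Myl4 (0.07), Myl3 (0.05), Myh7 (-0.01), Myl7 (-0.03) and Myl9 (-0.24), with SEs from 0.16 to 0.28. Myl1 was at 0.31 without Ho1 and 0.85 without Ho2. The share of Sema3c cells at or above the Myl2 limit moved with it, at 50.6% and 42.5% in Ho1 and Ho2 against 35.1% and 32.0% in Wt1 and Wt2, as did the summed outflow tract markers, at 7.43 and 9.27 per 10000 against 10.3 and 12.1, and Nppa, which rose by 1.27 ± 0.19 (edgeR adjusted p = 0.00835). Trabecular markers summed to 3.04 and 2.42 per 10000 in Ho against 1.77 and 2.04 in Wt. Mesenchymal markers, led by Cthrc1, summed to 0.919 and 0.815 against 1.17 and 1.37, and endothelial markers to 0.357 and 0.315 against 0.443 and 0.429. The part of all these values in the change of Myl1 was not tested. Both Ho libraries were above for 2, 0 and 2 chains in Nppa-low, Shox2 and Sema3c cells, where 22.9%, 17.3% and 16.3% of genes were, and below for 1, 3 and 1, where 16.8%, 16.7% and 19.2% were.

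The Myh6 share of Myh6 and Myh7 differed between Ho and Wt by -0.584 points in all Tnnt2 cells, -2.51 in Nppa-high cells and -5.12 in Stard10 cells (exact two-sided permutation p = 1, 1 and 0.333, where 2 against 2 libraries cannot go below 0.333). The difference was 6.34 points in Nppa-low cells, with 42.1% and 37.9% in Ho1 and Ho2 against 32.0% and 35.3% in Wt1 and Wt2, -2.91 in Shox2 cells and 1.96 in Sema3c cells (exact permutation p = 0.333, 0.667 and 0.667). The sign thus differed between groups, and no difference could pass the test. The difference of the genotype effects between Stard10 and Nppa-high cells was tested as an interaction over 11678 genes, of which 0.0171% were called. Here edgeR called 0 of 9 chains, as did DESeq2, and 3 had an unadjusted p under 0.05 (3.35% of genes did). They were Myl2 at 0.48 ± 0.11 (SE, edgeR adjusted p = 0.470), Myh7 at 0.40 ± 0.13 and Myl7 at -0.24 ± 0.10. The others were Myh7b (0.23), Myl3 (0.07), Myh6 (0.01), Myl1 (-0.008), Myl4 (-0.05) and Myl9 (-0.13), with SEs from 0.09 to 0.28. Without Wt1, Wt2, Ho1 and Ho2 in turn, Myl2 was at 0.49, 0.47, 0.26 and 0.69 in the interaction. Myh7 was at 0.31, 0.49, 0.096 and 0.69 in the same order.

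Muscle transcripts were also counted in cells that should not make them. Cdh5 cells, with at least 2 UMIs of the endothelial cadherin Cdh5 and Tnnt2 under its limit, numbered 1006, 1565, 1668 and 951. Their Myl7 level was 0.436%, 0.723%, 1.81% and 0.546% of that in Tnnt2 cells of the same library, and for Myl2 it was 0.896%, 0.876%, 2.30% and 0.751%. Leaving out Myh7b, for which Cdh5 cells held at most 8 UMIs in a library, the chains lay between 0.311% and 2.30%, and Ho1 had the highest value of each. The medians over cells were lower than these sums and differed less between libraries. The median of Myl7 was 0.666, 0.9995, 1.22 and 0.844 per 10000, against 1.13, 1.69, 4.32 and 1.31 in the sums, and 1.09%, 0.958%, 3.12% and 0.631% of Cdh5 cells had 20 or more. In all, the 9 chains made up 0.0241%, 0.0364%, 0.0869% and 0.0280% of the UMIs of Cdh5 cells. The number of Tnnt2 cells with at least 2 UMIs of Cdh5 was also set apart in Ho1, at 50 cells against 5, 9 and 2.

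Myl9 had a higher ratio to Tnnt2 cells in another cell type. Cells with at least 2 UMIs of Pdgfra and none of Cdh5, which are mesenchymal, had Myl9 at 1.50, 2.78, 1.91 and 1.86 per 10000, or 6.61%, 11.2%, 8.94% and 9.01% of the Tnnt2 cells. This was 11.7, 11.3, 5.90 and 15.4 times the median of the other 8 chains in these cells, and 1.96, 1.64, 0.912 and 1.85 times in Cdh5 cells. Myl7 stood at 0.945%, 2.10%, 2.94% and 2.01% there, and the other chains but Myh7b between 0.280% and 2.18%. Here too a small share of the cells had high Myl7, with medians of 0.693, 1.26, 1.50 and 1.03 per 10000 and 1.59%, 5.66%, 6.29% and 4.92% of cells at 20 or more, while Myl9 had medians of 0.522, 0.819, 0.740 and 0.547 and at most 1.35% of cells at 20 or more.

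**Figure D5:**
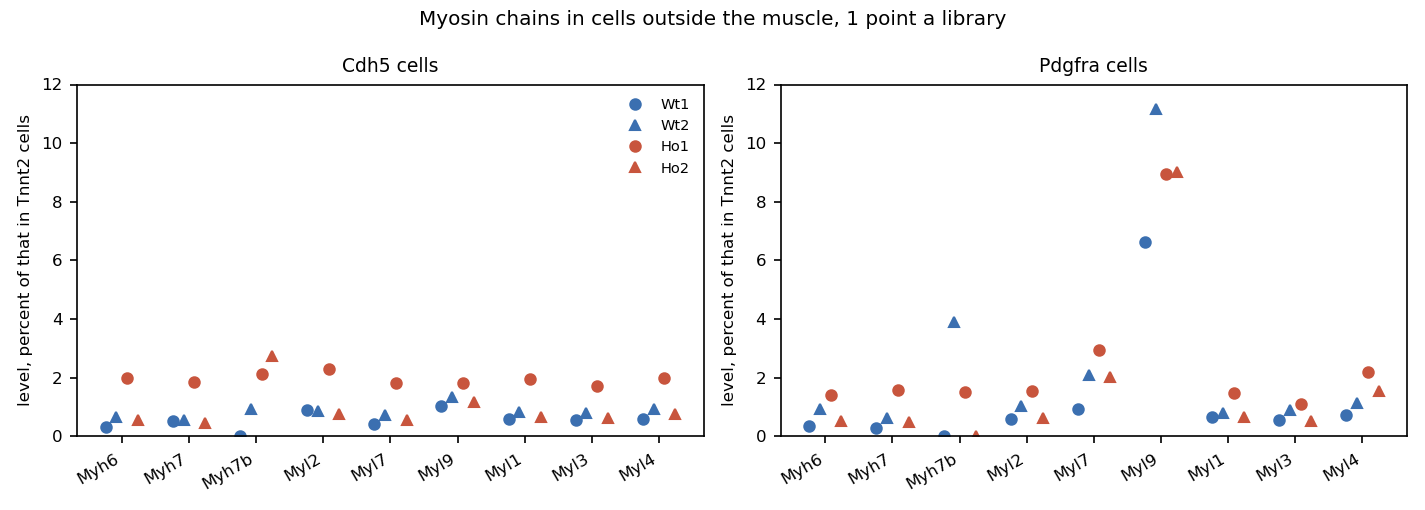
Level of each chain in Cdh5 cells and in Pdgfra cells as a percent of its level in the Tnnt2 cells of the same library (y axis), with 1 point a library. In Cdh5 cells the chains lie between 0% and 2.73%, with Ho1 highest in all but Myh7b, and in Pdgfra cells Myl9 stands above the others in each library.

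The limit on Tnnt2 cuts a continuous range. Cells with 8 to 10 Tnnt2 UMIs per 10000 (61, 72, 109 and 62 cells in Wt1, Wt2, Ho1 and Ho2) had Myl7 at 63.9, 44.0, 97.1 and 64.6 per 10000, and cells with 10 to 12 (43, 85, 124 and 46 cells) at 69.2, 59.97, 130 and 80.6. Both lay far above Cdh5 cells, at 1.13, 1.69, 4.32 and 1.31, and below every group of Tnnt2 cells.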

How the data were processed

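The deposited files held UMI counts per gene and cell barcode of 10x 3′ v3.1 libraries, 1 matrix for each of 4 libraries. Per the labels and the processing notes, the authors made these counts with Cell Ranger 6.1.1 on mm10 and analysed them in Seurat 4.1.0. No per-sample column was left unused (0). Here barcodes with over 20% mitochondrial counts, under 500 or over 50000 UMIs, or under 500 or over 6000 genes were dropped, as in the study. Scrublet in scanpy 1.11.5 replaced the doublet caller of the study: the highest scores were removed at 0.8% of cells for each 1000 cells, which took 746, 464, 440 and 334 cells from Wt1, Wt2, Ho1 and Ho2.

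Where a muscle cell carried several region genes, Shox2 cells had under 2 UMIs of Sema3c, Stard10 cells under 2 of Shox2 and Sema3c, and Sema3c cells under 2 of Shox2 and Stard10. Counts were summed per library and group (at least 20 cells), since cells of a library are not replicates. The sums were tested with edgeR 4.0.16 in R 4.3.3 (filterByExpr, TMM, quasi-likelihood, Benjamini-Hochberg over all genes tested, called at an adjusted p of 0.05), in place of the study's test over cells. DESeq2 1.42.0 was an alternative. The fits were tested on simulated data. All 9 chains are named in every comparison, with the 5 genes most like 4 of them, and of each list of other genes 2 to 4 with the lowest p between Stard10 and Nppa-high cells. The rule asked for these list genes in every comparison, but fewer or none are given in the others. The chains, lists and limits were chosen with earlier results of these data known.

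Replicate numbers did not pair the libraries: the difference of Wt1 and Wt2 correlated with that of Ho1 and Ho2 at r = -0.12 over 14651 genes. Alternatives changed the normalization, the filters, the blocks, the limits for groups and the libraries used. Figures were drawn with matplotlib 3.10.9.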

Additional observations from a re-analysis of the deposited data

Results flagged for a closer look

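In the interaction of genotype and region, the 2 genes called were embryonic globins, which red blood cells of the early embryo make. Ho minus Wt in Stard10 cells less Ho minus Wt in Nppa-high cells was -5.34 ± 0.73 for Hba-x and -3.03 ± 0.51 for Hbb-y on the log2 scale (SE, edgeR adjusted p = 0.0014 and 0.022). In Nppa-high cells of Wt1, Wt2, Ho1 and Ho2, Hba-x was 0.0131, 0.00927, 1.38 and 0.0904 per 10000 UMIs and Hbb-y 0, 0.0204, 0.418 and 0.169, so Ho1 was the highest library for both. Without Wt1, Wt2, Ho1 and Ho2 in turn, Hba-x was at -5.55, -3.89, -3.31 and -5.62 and Hbb-y at -2.92, -8.48, -3.38 and -2.93. Each of these fits left 1 library of a genotype, so whether the calls held cannot be judged from them. The part of the 2 globins in the myosin values of these cells was not tested.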

How the results depend on the processing

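Of 572 values of the 9 chains in the comparisons of regions under alternative settings, 515 kept their direction and their side of the threshold, 42 lost the call, 8 gained it and 7 changed sign. Of 431 such values between genotypes in all Tnnt2, Nppa-high and Stard10 cells, 380 kept both, 45 changed sign and 6 passed the threshold. The cause was not tested in any of these. Libraries number 2 a genotype, 103 Nppa-high cells of Wt1 are shallow, and Myh7b rested on as few as 7 UMIs, which limits each value that uses them.

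Counts of genes called between genotypes were unstable. In all Tnnt2 cells the count of 1 became 229 with every gene in the fit, 23 in DESeq2, 8 with a Tnnt2 limit of 20 per 10000 and 0 with a limit of 5 or with doublets kept. In Nppa-high cells 6 became 22 with every gene, 0 in DESeq2, 3 with doublets kept, 11 and 12 with Tnnt2 limits of 5 and 20, and 0 with an Nppa limit of 20. In Nppa-low cells 23 became 240 with every gene, 36 with at least 10 counts in every sum, 0 with doublets kept, 3 with a Tnnt2 limit of 5, 5 in groups set on thinned cells and 35 with an Nppa limit of 20. In Stard10 cells 14 became 91 with every gene and 7 with doublets kept. In Shox2 cells 1 became 106 with every gene, 2 with at least 10 counts in every sum, 2 in DESeq2, and 0 with doublets kept, with a Tnnt2 limit of 20, with region genes at 1 UMI and on thinned cells. In Sema3c cells 6 became 2 with every gene, 27 with at least 10 counts, 0 in DESeq2, 12 with doublets kept, 10 with a Tnnt2 limit of 5 and 14 with region genes at 1 UMI. The interaction called 2 genes, and 8 with every gene, 15 on thinned cells, and 0 with at least 10 counts, in DESeq2 and with a Tnnt2 limit of 5. In Shox2 against Stard10 cells 5193 genes called became 3389 with at least 10 counts in every sum, a setting that tests fewer genes.

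With the replicate number as a block (replicate block), 5 of 14651 genes were called in all Tnnt2 cells. The counts were 12 of 10555 in Nppa-high, 145 of 12031 in Nppa-low and 85 of 12265 in Stard10 cells. In Shox2 cells 81 of 11357 were called, and in Sema3c cells 64 of 10089. Under this block Myh7 was called in Stard10 cells at 0.51 (edgeR adjusted p = 0.00947), as were 1 chain in Nppa-low, 2 in Shox2 and 1 in Sema3c cells, while the block turned Myh7b in Nppa-high cells to 0.10 and Myh6 in Stard10 cells to -0.0041. With crossed replicate numbers as the block, a setting chosen after seeing the data, 139 genes were called in all Tnnt2 cells, 135 in Nppa-low, 63 in Stard10, 86 in Shox2 and 49 in Sema3c cells, with Myh7b in Nppa-high cells at 0.012 and Myh6 in Stard10 cells at -0.0043.

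Other changes of sign were of values that had not passed the test, save Myl9 in Sema3c against Nppa-high cells, at -0.094 on thinned cells. Between genotypes, Myl1 in all Tnnt2 cells turned to 0.019 with doublets kept and 0.0052 with a Tnnt2 limit of 5. In Nppa-high cells Myh6 was at 0.0019 with a Tnnt2 limit of 20, Myh7b at 0.086 in DESeq2, Myl1 at 0.053 with an Nppa limit of 20, Myl9 at 0.00013 with at least 10 counts and 0.040 with an Nppa limit of 20, and Myl2 at 0.0096 with every gene, 0.030 with at least 10 counts, 0.0053 with doublets kept, 0.0032 with a Tnnt2 limit of 5 and 0.070 with an Nppa limit of 20. In Stard10 cells Myh6 was at -0.025 with region genes at 1 UMI and Myl4 at -0.00013 on thinned cells. In Sema3c against Nppa-high cells Myh7 was at -0.0020 and Myh7b at 0.023 with an Nppa limit of 20, Myh7b at 0.0077 with at most 10% mitochondrial counts, and Myl3 at -0.013 on thinned cells. The Myh6 share of Stard10 less Nppa-high cells was 39.3 points with region genes at 1 UMI and 39.6 on thinned cells, and Myl7 in Cdh5 cells was 1.88% of its level in Tnnt2 cells with doublets kept.

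With 1 library left out, the lone library of a genotype was assumed to vary like the others. Counts of calls between genotypes from such fits therefore hold no measure of the spread within that genotype. Genes called then ran from 1 to 446 in all Tnnt2 cells (446 without Ho2, 339 without Ho1), 14 to 33 in Nppa-high, 16 to 269 in Nppa-low (254 without Ho1, 269 without Ho2), 19 to 103 in Stard10 (103 without Ho1, 96 without Ho2), 0 to 316 in Shox2 (316 without Ho1, 110 without Ho2) and 0 to 44 in Sema3c cells (44 without Wt1), and 1 to 26 in the interaction (26 without Wt2, 11 without Wt1). Between regions they ran from 2686 to 3303 for Stard10 less Nppa-high, 3989 to 4901 for Shox2 less Stard10, 2788 to 3871 for Sema3c less Nppa-high and 2245 to 2797 for Nppa-low less Nppa-high cells. The difference in Myh6 share, Ho minus Wt, ran from -3.48 to 2.31 points in all Tnnt2, -8.31 to 3.28 in Nppa-high and -8.19 to -2.05 in Stard10 cells, and the share of Stard10 less Nppa-high cells from 44.3 to 47.7. Myl7 in Cdh5 cells ran from 0.568% to 1.03% and Myl9 in Pdgfra cells from 8.19% to 9.70% of Tnnt2 cells.

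Log2 changes between genotypes that changed sign with a library left out ran, in all Tnnt2 cells, from -0.00084 to 0.097 for Myh6, -0.078 to 0.25 for Myh7, -0.28 to 0.20 for Myl1, -0.074 to 0.35 for Myl2, -0.12 to 0.15 for Myl3, -0.11 to 0.11 for Myl4 and -0.12 to 0.034 for Myl7. In Nppa-high cells they ran from -0.31 to 0.27 for Myh6, -0.042 to 0.27 for Myh7, -0.15 to 0.64 for Myh7b, -0.19 to 0.079 for Myl1, -0.037 to 0.030 for Myl2, -0.0038 to 0.20 for Myl3, -0.0079 to 0.12 for Myl4 and -0.20 to 0.16 for Myl9. In Stard10 cells they ran from -0.14 to 0.13 for Myh6, -0.24 to 0.19 for Myl1, -0.083 to 0.10 for Myl4 and -0.14 to 0.0014 for Myl7. Between Sema3c and Nppa-high cells Myh7b ran from -0.19 to 0.074.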
